A study of Mus musculus with 3 samples.

Results

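Genes of the actin, myosin and intermediate filament systems were examined in mouse liver RNA against Universal Mouse Reference RNA (UMRR). They were found by name: a probe was a member if its only symbol in the platform annotation began with the letters of an actin, actinin, actin-related protein, Arp2/3 subunit, myosin heavy or light chain, unconventional myosin, tropomyosin, troponin, keratin, filamin, cofilin, capping protein, profilin, thymosin, lamin, spectrin, calponin, transgelin or plastin, or of destrin, Cap1, vimentin, desmin, ezrin, radixin, moesin, vinculin, talin or zyxin. The array held 153 such probes for 103 genes, out of 12336 probes for 7984 genes with 1 symbol. A ratio on all 3 arrays was present for 62 of the 103 genes, through 85 probes. A further 20 genes had a ratio on only 1 or 2 arrays, and 21 were listed at exact 0 throughout. An exact 0 was read as no ratio.

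The study set purchased liver total RNA, in Cy5, against purchased UMRR, in Cy3, on each of 3 arrays of the same dye orientation. UMRR, sold as a common reference for arrays, pools RNA of several mouse cell lines, and cRNA of both was made with a single round of amplification. The sources used here do not give the strain, age, sex or number of animals behind the liver RNA. Each RNA was 1 product, so the arrays repeat 1 pair of RNAs. The p-values measure only how far those arrays differ, which is technical variation and not variation between animals. With no dye swap, dye bias stays in each value. All values below are deposited log ratios, read as log2 of liver over UMRR; were they natural logs, the log2 ratios would be 1.44 times as large.

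The direction rests on hepatocyte genes: Apoc3, Ambp, Rbp4 and Vtn, all that were measured among 6 markers on the array, had means of 4.01 to 5.17, while Ttr and Fgb lacked a ratio on all 3 arrays. Of 8 measured pancreatic acinar markers 7 were also higher in the liver RNA, as were 3 of 5 erythroid markers. By the limma test given below, 30.1% of all genes were higher. The acinar markers ranged from 0.22 to 5.55 and the erythroid ones from 0.22 to 4.94. The share of exact zeros among the member probes was 36.6%, 26.1% and 34.6% on arrays 1, 2 and 3, against 32.2%, 23.5% and 29.6% over all probes. In RNA from whole tissue, fewer cells of a type and less RNA per cell cannot be told apart.

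Actin monomers assemble into filaments that are nucleated by the Arp2/3 complex, fed by profilin, thinned by cofilin, capped at their ends and bundled or anchored by actinin, spectrin and talin. Myosins move along them, in muscle within sarcomeres regulated by troponin and in other cells under control of regulatory light chains. Intermediate filaments are a separate system whose subunits depend on cell type: vimentin in mesenchymal and many cultured cells, desmin in muscle, keratins in epithelia and lamins in the nucleus. Hepatocytes carry a simple pair of keratins, Krt8 and Krt18, line their bile canaliculi with cortical actin and contain little vimentin.

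Of the 62 measured genes, 33 (53.2%) were lower in liver, 10 (16.1%) were higher and 19 did not pass, by limma, with p-values adjusted after Benjamini and Hochberg over all 5520 measured genes and a threshold of 0.05. Over all genes 64% were called, 33.9% lower and 30.1% higher. The median log2 ratio was -0.33 over the members and -0.028 over all genes. On every array the difference was at least 2-fold for 11 members on the lower side (17.7%, against 9.53% of all genes) and for 1 on the higher side (1.61%, against 9.46%). The lowest member was Tmsb10, a thymosin that binds actin monomers, and the highest was Tnnt2, the troponin T of heart muscle. Of the 43 calls, 27 held with each array left out in turn, 4 higher and 23 lower. A test without moderation of the variance called 6 members higher and 19 lower, and of those 27 it ended the calls of Arpc4, Krt6a, Myl12b, Myo1c, Tagln3, Tln2, Tmsb4x and Tpm1. When exact zeros counted as a ratio of 1, 6 of 103 genes were higher and 22 lower, and of the 27 the calls of Actg1, Arpc4, Krt6a, Myl12b, Tln2 and Tpm1 ended. The counts over 62 genes cover only those with a ratio on all arrays, and the share of calls is a description of them.

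**Figure D1:**
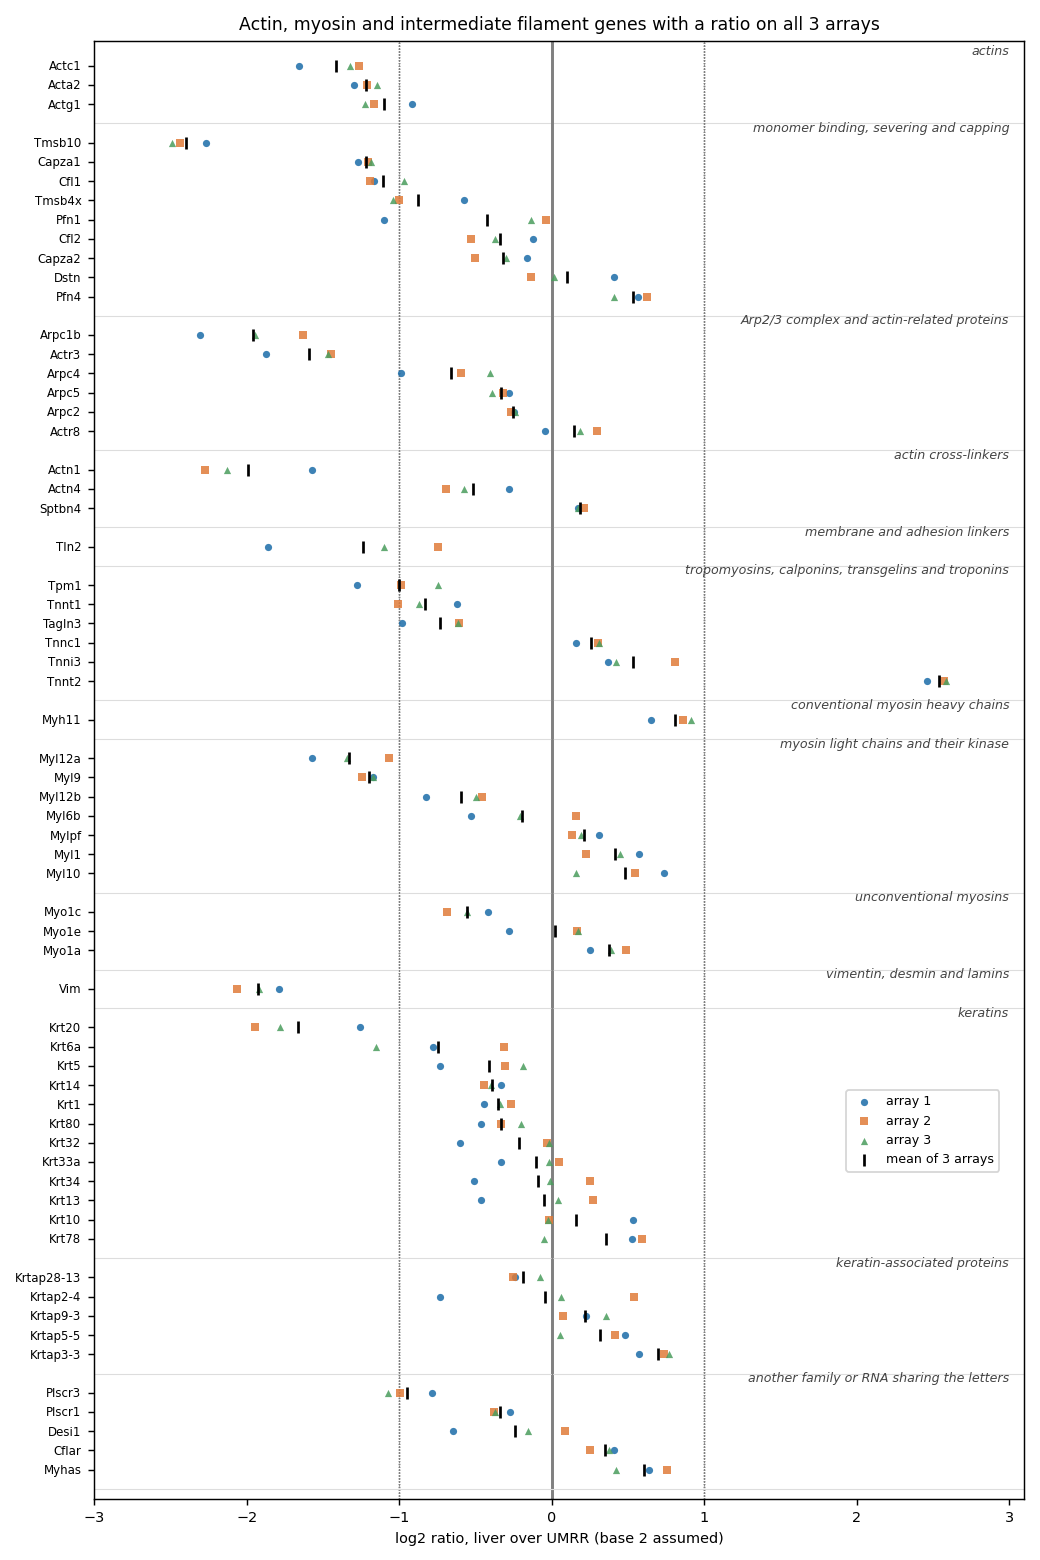
Log2 ratio of liver over UMRR for the 62 genes, grouped by role and sorted within each role. Coloured symbols are the 3 arrays, black bars their means and dotted lines 2-fold differences. Actins, Vim, Tmsb10, Arpc1b and Actn1 lie left of -1 on average, and Tnnt2 stands alone to the right of 1.

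**Figure D2:**
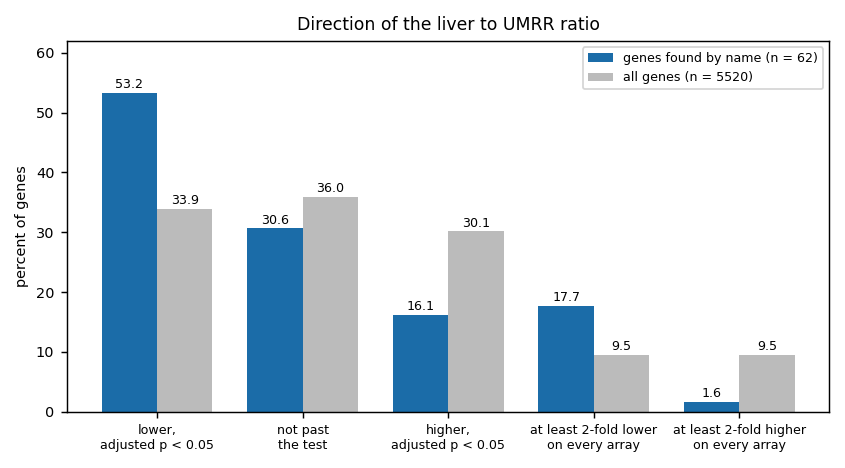
Percent of genes lower, not past the test or higher in liver, and percent at least 2-fold apart on every array, for the 62 genes found by name and for all 5520 measured genes. Lower calls make up 53.2% of the 62 genes and 33.9% of all genes.

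Start-site sequence was examined next, because several actin and myosin genes were lower together and serum response factor, a regulator of many actin cytoskeleton genes, binds the CArG box. RefSeq windows (build GRCm38.p6, 250 bases before to 50 after a gene's annotated start) were found for 92 of the 103 genes, 112 windows in all. A strict CArG box on either strand was found in 7 of the 112 windows (6.25%), against 1.63% of all 32851 windows. Of the 7 genes, Actc1, Actg1, Myl9 and Arpc4 were lower in liver and Myo1e did not pass. Cnn2 and Myl3 were not tested. Lower calls made up 53.2% of the measured members and 33.9% of all genes. Those 4 were the only ones of the 33 lower members with a strict CArG box in a window, and 11 members had no window. The part of serum response factor in these ratios was not tested. The letters TATAAA were in 19.6% of the member windows and 13.6% of all, and CATTCC, the core of the M-CAT element of muscle genes, in 18.8% and 14.7%, each searched on both strands. Of 22 member genes with TATAAA, 4 were lower, 3 higher, 7 did not pass and 8 were not tested. Of 21 with CATTCC, 8 were lower, 2 higher, 5 did not pass and 6 were not tested. A match is no evidence that a factor binds there. The windows of 3 lower genes and of Tnnt2, the highest member, are shown on the gene's strand with the matches in capitals. They lie at chr2:114052826-114053125 on the minus strand (Actc1), chr11:120348446-120348745 on the minus strand (Actg1), chr2:156775214-156775513 on the plus strand (Myl9) and chr1:135836084-135836383 on the plus strand (Tnnt2, the first of its windows; neither holds a CArG box).
Actc1: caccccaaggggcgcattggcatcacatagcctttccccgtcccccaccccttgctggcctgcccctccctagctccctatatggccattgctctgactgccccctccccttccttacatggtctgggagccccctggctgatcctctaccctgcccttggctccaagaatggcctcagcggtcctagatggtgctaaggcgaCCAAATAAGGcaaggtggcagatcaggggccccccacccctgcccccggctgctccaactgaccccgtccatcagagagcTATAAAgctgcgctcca
Actg1: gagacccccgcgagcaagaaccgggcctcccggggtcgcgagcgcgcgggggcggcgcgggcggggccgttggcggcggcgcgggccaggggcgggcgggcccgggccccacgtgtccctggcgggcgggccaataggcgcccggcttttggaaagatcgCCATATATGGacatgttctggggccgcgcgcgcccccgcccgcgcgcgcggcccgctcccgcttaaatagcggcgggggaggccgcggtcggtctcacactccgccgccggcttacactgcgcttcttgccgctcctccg
Myl9: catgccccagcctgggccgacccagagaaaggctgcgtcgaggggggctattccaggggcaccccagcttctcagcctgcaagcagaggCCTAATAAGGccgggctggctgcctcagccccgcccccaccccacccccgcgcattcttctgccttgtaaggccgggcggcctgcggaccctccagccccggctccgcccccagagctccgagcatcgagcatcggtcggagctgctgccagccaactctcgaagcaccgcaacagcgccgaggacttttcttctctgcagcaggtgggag
Tnnt2: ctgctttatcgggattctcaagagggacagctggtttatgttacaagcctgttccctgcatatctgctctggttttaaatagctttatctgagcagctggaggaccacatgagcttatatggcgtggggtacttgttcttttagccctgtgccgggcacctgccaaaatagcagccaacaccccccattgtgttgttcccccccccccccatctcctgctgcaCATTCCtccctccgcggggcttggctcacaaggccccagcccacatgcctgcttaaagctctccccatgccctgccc
The CArG box begins at base 204 of the Actc1 window, base 161 of the Actg1 window and base 90 of the Myl9 window. Actc1 also has TATAAA from base 284, which lies 33 bases after the annotated start. The Tnnt2 window has CATTCC from base 224.

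All 3 actins with a ratio on every array were lower in liver, as were 33.9% of all genes. Actc1, the actin of heart muscle, read -1.65, -1.27 and -1.32 on arrays 1, 2 and 3. Its mean was -1.42 ± 0.21 (SD, n = 3), or 2.67-fold lower (adjusted p = 9.57e-05 in limma). Acta2, the actin of smooth muscle and activated stellate cells, read -1.30, -1.21 and -1.15, with a mean of -1.22 ± 0.076 or 2.33-fold lower (adjusted p = 7.91e-05 in limma). Actg1, a cytoplasmic actin found in nearly all cells, read -0.91, -1.16 and -1.22, with a mean of -1.10 ± 0.16 (adjusted p = 0.000199 in limma). Acta2 overlapped with both others across arrays, while every array of Actc1 was below every array of Actg1. The coding sequences of actins are close to each other, and a probe of one can take up RNA of another, so the single values are uncertain. The 2 probes of Acta2 differed, at -1.68 and -0.76, while those of Actc1 (-1.53 and -1.30) and Actg1 (-1.17 and -1.04) lay closer together. When exact zeros counted as a ratio of 1, a setting that admits a probe of Actg1 with a ratio on array 2 alone, Actg1 stood at -0.93 and did not pass (adjusted p = 0.0768 in limma). A further probe of Actc1 had a ratio on array 2 alone, at -0.011.

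Among proteins that hold monomers, sever or cap filaments, 6 of 9 measured genes were lower in liver, 1 was higher and 2 did not pass. Their median was -0.42. Of all genes, 33.9% were lower and 30.1% higher. Tmsb10 read -2.27, -2.44 and -2.49 on arrays 1, 2 and 3, over 4 probes whose means lay between -2.53 and -2.34. It was 5.28-fold lower (-2.40 ± 0.12, SD, n = 3; adjusted p = 7.23e-06 in limma) and ranked 91st from the bottom of 5520 genes. Its relative Tmsb4x, the main monomer-holding thymosin of many cells, read -0.58, -1.004 and -1.04, with a mean of -0.87 ± 0.26 (adjusted p = 0.00114 in limma). The arrays of the thymosins did not overlap, Tmsb10 being lower on each. Capza1, an alpha subunit of the capping protein, read -1.27, -1.21 and -1.18 (-1.22 ± 0.045, adjusted p = 7.17e-05 in limma). Its 4 probes carry the same accession and had means between -1.32 and -0.99. Cfl1, the cofilin of most non-muscle cells, read -1.16, -1.19 and -0.97 (-1.11 ± 0.12, adjusted p = 0.000147 in limma).

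The other form of each pair stood nearer to 0. Capza2 was lower at -0.32 ± 0.17 (SD, n = 3), but its 2 probes stood at -0.63 and -0.015, and it no longer passed when array 2 (adjusted p = 0.244 in limma) or array 3 (adjusted p = 0.383) was left out. Cfl2, the cofilin of muscle, was lower at -0.34 ± 0.21, and did not pass without array 2 (adjusted p = 0.226 in limma) or array 3 (adjusted p = 0.183). On every array Capza1 was lower than Capza2, and Cfl1 than Cfl2; no test of these differences was made. Dstn, destrin, read 0.41, -0.13 and 0.018, and its mean of 0.10 fell to -0.058 without array 1. Pfn1, the profilin of most cells, read -1.10, -0.038 and -0.14, so its mean of -0.42 (adjusted p = 0.127 in limma) rested on array 1 and was -0.088 without it. Pfn4, a profilin of testis, was the member that was higher, at 0.53 ± 0.11 (adjusted p = 0.00347 in limma). Cap1, which recycles monomers, had a ratio on array 2 alone, at -1.01, and Pfn3 read 0.17 and -0.23 on arrays 2 and 3.

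Of the 6 measured genes of the Arp2/3 complex and the actin-related proteins, 5 were lower in liver and 1 did not pass. Their median was -0.50. Of all genes, 33.9% were lower and 30.1% higher. Arpc1b, a subunit of the complex, read -2.30, -1.63 and -1.95 on arrays 1, 2 and 3, or 3.89-fold lower (-1.96 ± 0.34, SD, n = 3; adjusted p = 6.67e-05 in limma). Actr3, which is Arp3 itself, read -1.87, -1.44 and -1.46 (-1.59 ± 0.24, adjusted p = 7.52e-05 in limma). Arpc4 stood at -0.66 ± 0.30, Arpc5 at -0.33 ± 0.055 and Arpc2 at -0.25 ± 0.012, and no array of Arpc1b or Actr3 overlapped with any array of these 3 genes; no test of these differences was made. The 5 probes of Arpc5 lay between -0.49 and -0.081. The calls of Arpc2 (adjusted p = 0.0475 in limma) and Arpc5 (adjusted p = 0.0192) ended when array 2 (adjusted p = 0.212 and 0.103) or array 3 (adjusted p = 0.256 and 0.186) was left out. Arpc2 also lost its call after the arrays were centred or scaled. When exact zeros counted as a ratio of 1, Arpc4 stood at -0.34 (adjusted p = 0.143). Actr8, an actin-related protein of the INO80 chromatin remodeller, read -0.046, 0.30 and 0.19 and did not pass with all arrays; without array 1 it passed at 0.24 (adjusted p = 0.0390 in limma). Actr1a, the dynactin subunit, had a ratio on array 3 alone, at 0.33, and Arpc1a, Actrt1 and Actrt2 were listed at 0.

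Cross-linkers and anchors had few measured members. Actn1, the alpha-actinin of stress fibres and adhesions, read -1.57, -2.28 and -2.13 on arrays 1, 2 and 3, or 3.98-fold lower (-1.99 ± 0.37, SD, n = 3; adjusted p = 7.90e-05 in limma). Actn4, the other non-muscle actinin, stood at -0.52 ± 0.21, above Actn1 on every array, and it did not pass without array 2 (adjusted p = 0.0588 in limma) or array 3 (adjusted p = 0.0599). Sptbn4, a spectrin of axons, stood at 0.19 ± 0.021 and did not pass (adjusted p = 0.112). Tln2, a talin that couples integrins to actin, read -1.86, -0.75 and -1.10. Its mean was -1.24 ± 0.57 (adjusted p = 0.00248 in limma), and it did not pass without moderation of the variance (adjusted p = 0.109) or with exact zeros kept (adjusted p = 0.0894). Tln1 read -0.92 and -0.57 on arrays 2 and 3 and had no ratio on array 1. Ezr, which links actin to the membrane, had a ratio on array 2 alone, at -0.50, and Sptan1 read 0.065 and -0.33 on arrays 1 and 2. Rdx, the radixin of bile canaliculi, and Actn3, an actinin of muscle, were listed at 0. No member probe carried a filamin, moesin, vinculin or zyxin symbol, or one with the letters Pls used for plastins. Lcp1, a plastin without those letters, is in the list of actin regulators and was lower at -0.65 ± 0.16 (adjusted p = 0.00199 in limma).

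Myosin genes went both ways, as did all genes, of which 33.9% were lower in liver and 30.1% higher. Of 7 regulatory and essential light chains, 3 were lower in liver, 2 were higher and 2 did not pass. The lower ones were light chains of smooth muscle and non-muscle myosin. Myl12a read -1.57, -1.06 and -1.34 on arrays 1, 2 and 3 (-1.33 ± 0.25, SD, n = 3; adjusted p = 0.000179 in limma). Myl9 read -1.17, -1.24 and -1.17 (-1.20 ± 0.040, adjusted p = 7.76e-05 in limma), with probe means of -1.42, -1.15 and -1.02. Myl12b stood at -0.59 ± 0.20 (adjusted p = 0.00405 in limma). Myl12a and Myl12b are near-identical, so a probe of one may take up RNA of the other and their values are uncertain.

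The higher light chains were Myl1, of fast skeletal muscle, at 0.42 ± 0.17 (SD, n = 3), and Myl10, at 0.48 ± 0.29. Myl1 lost its call without array 3 (adjusted p = 0.103 in limma) and Myl10 without array 2 (adjusted p = 0.0803). Mylpf, also of fast muscle, stood at 0.21 ± 0.092 (adjusted p = 0.0917) and Myl6b at -0.19 ± 0.34 (adjusted p = 0.284). Myh11, the myosin heavy chain of smooth muscle, read 0.65, 0.86 and 0.92 and was 1.75-fold higher (adjusted p = 0.000643 in limma). It thus stood on the other side of 0 from Acta2 and Myl9 on each array. Of 3 markers of smooth muscle and pericytes with a ratio and no place among the members, Smtn was higher at 0.82 ± 0.19, while Synpo2 (0.29 ± 0.26) and Pdgfrb (-0.19 ± 0.063) did not pass; their part in the result was not tested. Myh10, a non-muscle heavy chain, had a ratio on array 2 alone, at -0.26, and Mylk, the kinase that activates these light chains, was listed at 0.

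Unconventional myosins, which move membranes and cargo, were measured for 3 genes. Myo1c was lower at -0.55 ± 0.14 (SD, n = 3; adjusted p = 0.00342 in limma). Myo1a, the myosin of intestinal brush borders, was higher at 0.38 ± 0.12 (adjusted p = 0.0152 in limma) and lost its call without array 2 and without array 3 (adjusted p = 0.119 and 0.118). Myo1e averaged 0.021 over 3 probes that disagreed, at 0.60, -0.27 and -0.28, and the probe at 0.60 passed on its own (adjusted p = 0.00227 in the limma fit on probes). Its mean was -0.052 without array 2 and -0.056 without array 3. Myo10 read 1.08 and 0.94 on arrays 1 and 3 and had no ratio on array 2, so it was not tested. Myo19, a mitochondrial myosin, had a ratio on array 2 alone, at -0.13, and Myo1h, Myo3a and Myo5a were listed at 0.

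**Figure D3:**
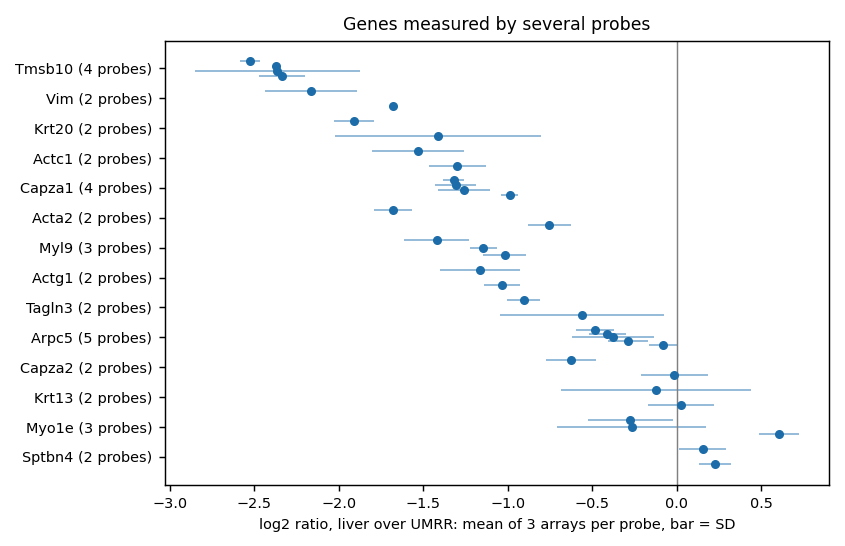
Mean log2 ratio of liver over UMRR for each probe of the 14 member genes with several measured probes, with the SD over 3 arrays as bars. The 2 probes of Acta2 are 0.92 apart, which is the widest spread among these genes, and the 4 probes of Tmsb10 are 0.19 apart.

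Over the 14 genes with several measured probes the median distance between the highest and lowest probe was 0.37, against 0.34 over 1328 such genes of the array. The sign differed between probes for Myo1e and Krt13 and was shared by the probes of the other 12 genes. On single probes the same limma fit called 33.5% of 9910 probes lower and 31.4% higher.

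Troponin and tropomyosin genes held both the highest member, Tnnt2, and 2 lower ones, Tnnt1 and Tpm1. Tnnt2 read 2.46, 2.57 and 2.59 on arrays 1, 2 and 3, on 1 probe. It was 5.82-fold higher in liver (2.54 ± 0.067, SD, n = 3; adjusted p = 5.44e-06 in limma) and ranked 152nd from the top of 5520 genes. No other member with a ratio on all arrays reached 1 on average. Tnni3, the troponin I of heart, read 0.37, 0.81 and 0.42 (0.53 ± 0.24, adjusted p = 0.00847 in limma) and lost its call without array 2 (adjusted p = 0.0629). Tnnc1, the troponin C of heart and slow muscle, stood at 0.26 ± 0.086 (adjusted p = 0.0515 in limma) and passed without array 1 (0.31, adjusted p = 0.0144). Tnnt1, the troponin T of slow muscle, read -0.62, -1.01 and -0.87 and was lower (-0.83 ± 0.20, adjusted p = 0.000871 in limma). The 3 heart troponin subunits were thus above 0 on every array, with Tnnt2 above both others on each, while Actc1 of the same filament was below 0 on every array.

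The sarcomere genes with a ratio on all arrays were Tnnt2, Tnni3, Tnnc1, Tnnt1, Tpm1, Myl1, Mylpf and Actc1, grouped after their values were seen. Of the 8, 3 were higher, 3 lower and 2 did not pass. The shares over all genes, for this group and the markers that follow, were 33.9% lower and 30.1% higher. Of 11 measured markers of striated muscle outside the members, 1 was lower, 5 were higher and the other 5 did not pass. They ranged from -2.63 to 0.91. The highest were Ckm, the muscle creatine kinase (0.91 ± 0.28, SD, n = 3), Tcap (0.74 ± 0.080) and Pygm (0.66 ± 0.13), and the lowest was Ankrd1 (-2.63 ± 0.22). Ryr2, Ldb3 and Pln were listed at 0, as were the members Des and Myl3, and Tnni1 had a ratio on array 2 alone, at -0.13. Dmd, dystrophin, which muscle and other tissues carry, is in none of these marker lists. It came from a list of 11 measured adhesion and membrane linkers, where it alone was higher, at 2.07 ± 0.088. In that list 5 genes were lower and 5 did not pass. The part of muscle RNA in the ratio of Tnnt2 was not tested.

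**Figure D4:**
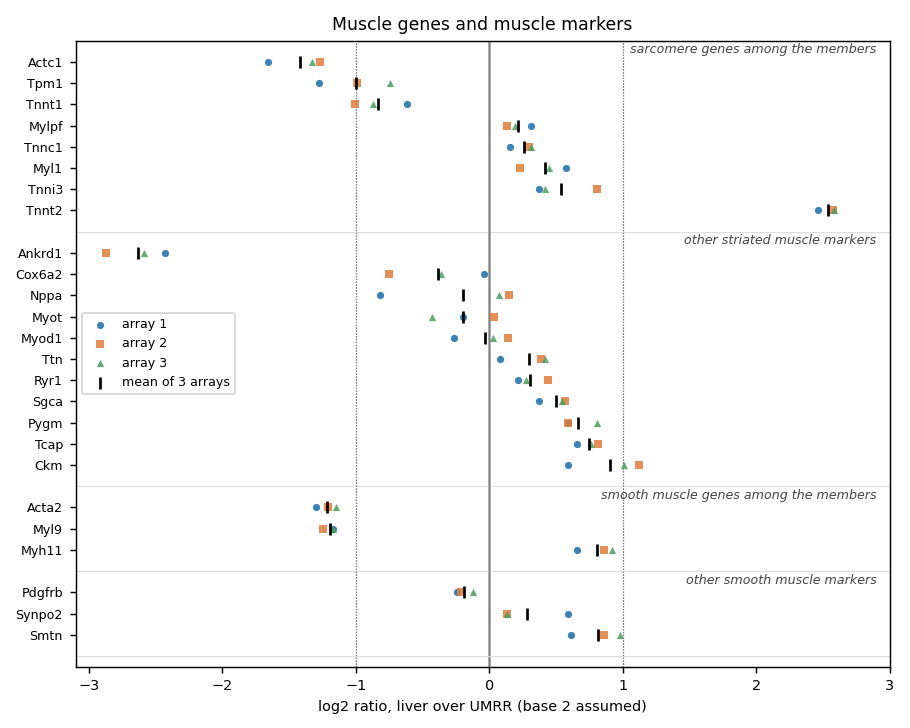
Log2 ratio of liver over UMRR for sarcomere and smooth muscle genes and for other muscle markers. Coloured symbols are the 3 arrays, black bars their means and dotted lines 2-fold differences. Tnnt2 stands at 2.54, with Ckm next among the plotted genes at 0.91, and Actc1, Acta2 and Myl9 lie below -1 on every array.

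The remaining genes of this group regulate or decorate filaments. Tpm1, a tropomyosin of muscle and other cells, read -1.27, -0.99 and -0.74 on arrays 1, 2 and 3 and was lower (-1.001 ± 0.27, SD, n = 3; adjusted p = 0.000672 in limma). It did not pass without moderation of the variance (adjusted p = 0.0555) or with exact zeros kept, which lets in another probe (-0.56, adjusted p = 0.0748). Tagln3, a transgelin of neurons, was lower at -0.73 ± 0.21 (adjusted p = 0.00170 in limma). Cnn2, a calponin of non-muscle cells, had a ratio on array 1 alone, at -1.40. Tagln, Cnn1, Cnn3, Tpm2 and Tpm4 were listed at 0.

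Vimentin was lower in liver and stood among the lowest members. Vim read -1.79, -2.06 and -1.92 on arrays 1, 2 and 3, which is 3.79-fold lower (-1.92 ± 0.14, SD, n = 3; adjusted p = 1.86e-05 in limma). Its probes stood at -2.17 and -1.68. Des, Lmna and Lmnb2, the other genes of this group on the array, were listed at 0, so nothing is known here of desmin or the lamins. Of 4 measured fibroblast and stellate cell markers, Col3a1 was lower at -1.70 ± 0.043, Lum (2.08 ± 0.15) and Reln (3.02 ± 0.43) were higher and Fbln2 did not pass (-0.15 ± 0.14); of 2 endothelial markers, Eng was higher at 1.63 ± 0.35 and Ramp2 did not pass (0.16 ± 0.14). The part of these cells in the ratio of Vim was not tested.

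Keratin genes were mostly close to a ratio of 1. Of 12 measured keratins 6 were lower in liver, 6 did not pass and 0 were higher, with a median of -0.27. The shares over all genes were 33.9% lower and 30.1% higher. No member probe carried the symbol of Krt8, Krt18, Krt7 or Krt19, the keratins of hepatocytes and bile ducts. Krt20, a keratin of gut and bladder epithelium, read -1.25, -1.95 and -1.78 on arrays 1, 2 and 3 and was 3.16-fold lower (-1.66 ± 0.36, SD, n = 3; adjusted p = 0.000158 in limma). Its 2 probes stood at -1.91 and -1.41. It was the sole keratin at least 2-fold apart on every array. Krt6a, of stressed epidermis, stood at -0.75 ± 0.42 (adjusted p = 0.00803 in limma). Its arrays ranged from -1.15 to -0.31.

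The other 4 lower keratins were closer to 0. Krt5, of basal epidermis, read -0.73, -0.31 and -0.19 on arrays 1, 2 and 3 (-0.41 ± 0.29, SD, n = 3; adjusted p = 0.0322 in limma). Its partner Krt14 read -0.33, -0.45 and -0.40 (-0.39 ± 0.056, adjusted p = 0.00979 in limma). Krt1, of the upper layers, read -0.45, -0.27 and -0.34 (-0.35 ± 0.090, adjusted p = 0.0175 in limma). Krt80 read -0.46, -0.33 and -0.20 (-0.33 ± 0.13, adjusted p = 0.0257 in limma). All 4 were below 0 on every array, and their arrays overlapped. Each of these calls was lost without array 2, with adjusted p-values in limma of 0.0703 for Krt5, 0.0794 for Krt14, 0.0666 for Krt1 and 0.118 for Krt80. Those of Krt14, Krt1 and Krt80 were also lost without array 3 (adjusted p = 0.0971, 0.127 and 0.0930). Of the keratinocyte markers outside the members, Dsc3 (-0.25 ± 0.097) and Lgals7 (0.23 ± 0.26) did not pass. All 4 measured markers of bile duct and simple epithelium passed, in both directions, where 64% of all genes passed. The junction genes Ocln (2.51 ± 0.31) and Cldn3 (1.22 ± 0.21) were higher. The transcription factor gene Sox9 (-1.28 ± 0.39) and the junction gene Cldn7 (-0.32 ± 0.062) were lower. Cldn7 did not pass without array 2 (adjusted p = 0.0857 in limma) or array 3 (adjusted p = 0.192), Cldn3 with exact zeros kept (adjusted p = 0.121) or Sox9 without moderation of the variance (adjusted p = 0.0654). The part of these cell types in the keratin ratios was not tested.

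The keratins that did not pass were Krt10, Krt13, Krt78 and the hair keratins Krt32, Krt33a and Krt34, with means between -0.22 and 0.36. Array 1 lay farther from the other arrays than these from each other in 5 of the 6, Krt78 being the exception. Krt32 read -0.60, -0.033 and -0.019 on arrays 1, 2 and 3, with a mean of -0.22 ± 0.33 (SD, n = 3). Krt33a read -0.33, 0.049 and -0.019, with a mean of -0.10 ± 0.20. Krt34 read -0.51, 0.25 and -0.0090, with a mean of -0.088 ± 0.39. All 3 hair keratins were lowest on array 1. Krt13 read -0.47, 0.27 and 0.040 (-0.051 ± 0.38), and Krt10 read 0.53, -0.020 and -0.024 (0.16 ± 0.32). Without array 1 the means of Krt10 (-0.022), Krt13 (0.16), Krt33a (0.015) and Krt34 (0.12) changed sign, and none passed. The median of the 12 keratins was -0.46 on array 1 and -0.15 and -0.12 on arrays 2 and 3, and their median SD between arrays was 0.33, against 0.17 over all genes. Krt78 read 0.53, 0.59 and -0.048 (0.36 ± 0.35), and passed without array 3 (0.56, adjusted p = 0.0273 in limma). Krt25 read -0.11 and 0.18 on arrays 2 and 3. Of the probes of Krt71, one read 9.24e-05 and 0.23 on arrays 1 and 2 and the other 0.38 on array 1 alone. Krt15, Krt6b and Krt75 were listed at 0.

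Keratin-associated proteins, which cross-link keratins in hair, were measured for 5 of 11 genes. Krtap3-3 was higher at 0.69 ± 0.10 (SD, n = 3; adjusted p = 0.00103 in limma), and read 0.58, 0.74 and 0.77. The other 4 did not pass: Krtap5-5 stood at 0.32 ± 0.23, Krtap9-3 at 0.22 ± 0.14, Krtap2-4 at -0.042 ± 0.64 and Krtap28-13 at -0.19 ± 0.098. Among them Krtap2-4 read -0.73, 0.54 and 0.063, and its mean of -0.042 became 0.30 without array 1. The other 6 had ratios on 2 arrays each. Both ratios were below 0 for Krtap1-5 (-0.44 and -0.61), Krtap16-3 (-0.18 and -0.64) and Krtap26-1 (-0.26 and -0.48), and both were above 0 for Krtap17-1 (0.11 and 0.39). They lay on both sides of 0 for Krtap19-3 (-0.73 and 0.060) and Krtap3-1 (0.055 and -0.26).

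A few genes share only the letters of the rule. Plscr3 and Plscr1, phospholipid scramblases, were lower at -0.95 ± 0.15 and -0.34 ± 0.059 (SD, n = 3), Cflar, an inhibitor of caspase-8, was higher at 0.35 ± 0.082 and Desi1, an isopeptidase, did not pass. Myhas, an RNA antisense to myosin heavy chain genes, was higher at 0.61 ± 0.17, but without array 1 it stood at -0.16 (adjusted p = 0.271 in limma), since another probe then entered. Lmntd2, which was not tested, read -0.051 and -0.25 on arrays 2 and 3. Plscr1 and Cflar did not pass when array 2 (adjusted p = 0.116 and 0.0640 in limma) or array 3 (adjusted p = 0.158 and 0.150) was left out. Without these genes 31 of 57 members were lower and 8 were higher. The median was then -0.33.

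Other genes of the same systems came from lists made for this comparison, with earlier results of these data known. Of 40 measured list genes, 21 were lower, 6 were higher and 13 did not pass. Over all genes 33.9% were lower and 30.1% higher. Their median was -0.42. Among 21 actin regulators, 13 were lower and 4 higher. The lowest were Eps8, which caps and bundles filaments (-2.26 ± 0.055, SD, n = 3), Marcks, a kinase substrate at the membrane (-1.97 ± 0.34), and Enah, a filament elongator (-1.86 ± 0.29). Higher were Daam1, a formin (0.91 ± 0.028), Cotl1 (0.70 ± 0.063) and Wasl, an activator of Arp2/3 (0.57 ± 0.28). Wasl did not pass without moderation of the variance (adjusted p = 0.123 in limma's fit).

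Of 11 adhesion and membrane linker genes, 5 were lower and 1 was higher. The shares over all genes, for this list and the next, were 33.9% lower and 30.1% higher. Dmd was the higher one, reading 2.03, 2.17 and 2.01 (2.07 ± 0.088, SD, n = 3; adjusted p = 1.07e-05 in limma). Lims1, an adaptor of integrin adhesions, stood at -1.69 ± 0.36, Ank3, an ankyrin, at -0.93 ± 0.17 and Ctnnb1, beta-catenin, at -0.78 ± 0.36. When exact zeros counted as a ratio of 1, Ctnnb1 stood at -0.39 (adjusted p = 0.0904 in limma). Of 8 genes around intermediate filaments, 3 were lower and 1 was higher. Nes, the filament protein nestin, read 1.00, 1.01 and 1.08 (1.03 ± 0.044, adjusted p = 0.000144 in limma), on the other side of 0 from Vim on every array. Tmpo, which binds lamins at the nuclear envelope, was lower at -2.05 ± 0.098, and did not pass when exact zeros counted as a ratio of 1 (-0.92, adjusted p = 0.0971 in limma). Dst and Plec, which tie filaments to other structures, were both lower at -0.42. Neither passed when array 2 (adjusted p = 0.113 and 0.164 in limma) or array 3 (adjusted p = 0.113 and 0.123) was left out.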

How the data were processed

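The authors deposited 3 arrays of 2 colours as a table of signed values, read here as log2 ratios of liver (Cy5, per the labels) over UMRR (Cy3). The sources used here do not say how these were scanned, corrected, normalized or filtered, or what their log base is. No intensities were used. Exact zeros were left out. Of 12336 probes with 1 symbol, 12228 matched the RefSeq gene table (GRCm38.p6, names only) by gene identifier and 108 kept the annotation's symbol; 61 probes had several symbols and 3876 none. Probes measured on all arrays (9910) were averaged per symbol, giving 5520 genes. The mean ratio was tested two-sided against 0 (limma 3.58.1, lmFit and eBayes, R 4.3.3), with Benjamini-Hochberg adjustment over all genes and a threshold of 0.05. The fit was tested on simulated data. Precision is limited by the number of arrays.

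The members, roles and lists were chosen with earlier results of these data known. Every member was named by role. Those past the test, with an absolute mean of at least 1 and 1 sign on all arrays, and all actins, keratins and lamins, are given in full, and up to 3 of the highest and 3 of the lowest genes past the test are named from each of the 3 lists of actin, adhesion and intermediate filament genes. Lcp1 was named besides these as a plastin. Lists of cell type markers are given by counts and examples. Keratin-associated proteins and Myhas were set apart as groups after the values were seen. The alternatives were centring, scaling, leaving out each array, probes with ratios on at least 2 arrays, exact zeros kept, eBayes with trend and robust, no moderation, the median probe, dropping the noisiest probes (SD above the 95th percentile), a threshold of 0.01, natural logs, and removal of genes sharing only letters with the families.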

Additional observations from a re-analysis of the deposited data

How the results depend on the processing

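Of 98 comparisons of a count or median with its main value, 90 stayed within 1.5 times the count or within the spread between arrays. Reading exact zeros as a ratio of 1 adds genes and probes. In that setting 6 member genes and 7 member probes were higher in liver and the member median was -0.070. Calls also ended there for genes whose mean stayed the same, such as Krt5 (-0.41, adjusted p = 0.179 in limma). Without moderation of the variance 6 members were higher, 19 were lower, and 11 list genes were lower. At a threshold of 0.01, 6 member genes and 7 member probes were higher. Of 43 member calls, 18 held under every setting in which they were tested, 4 higher and 14 lower. Leaving out array 1, 2 or 3 ended 1, 14 and 12 calls, among genes whose absolute mean was at most 0.61, 0.53 and 0.52. With 1 array left out, the mean ranged from -0.058 to 0.21 for Dstn, -0.022 to 0.26 for Krt10, -0.21 to 0.16 for Krt13, -0.18 to 0.015 for Krt33a, -0.26 to 0.12 for Krt34, -0.33 to 0.30 for Krtap2-4, -0.16 to 0.70 for Myhas and -0.056 to 0.17 for Myo1e. The sign was turned without array 1 in these genes, except Myo1e, where it was turned without array 2 (-0.052) and without array 3. It also turned for Myo1e with the median probe (-0.20), for Myhas with zeros kept (-0.00063) and for Krt13 without the noisiest probes (0.024); of these genes Myhas alone was called with all arrays. The causes were not tested. No paired analysis was possible because the arrays form 1 group. Signal over background could not be examined.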
